A study of Homo sapiens with 6 samples.

Results

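Transcripts of the epidermal growth factor (EGF) receptor family and its ligands were followed in MHCC97-H, a cell line from human liver cancer that was derived for its high capacity to metastasise. The set holds 9 genes of the 62710 in the count table, taken by name. The ligands are AREG, EREG, HBEGF, TGFA, BTC and NRG1, and the receptors are EGFR, ERBB2 and ERBB3. AREG was chosen for its rise in the melatonin libraries, so its difference there is given as a description with no test. Polyadenylated RNA was sequenced in 6 libraries, 2 each of cells given 0.2 mM melatonin (MLT), cells given 40 µM chloroquine (CQ) and untreated cells, all wild type in genotype and collected at 16 h. The study's design describes melatonin as its ER stress inhibitor and chloroquine as its autophagy inhibitor, and the untreated cells received no treatment, with no solvent named. The labels do not say whether both libraries of a group came from separate cultures, so p-values measure only the spread between these libraries.

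Library totals ran from 15993730 to 23311452 counts, and levels are given as CPM, counts scaled to library size with TMM factors. A count of 0 allows for up to 3 counts, which stood at 0.123 to 0.184 CPM and covers counting error only. Of 10 hepatocyte markers, HNF4A was the 1 that reached 1 CPM in a library; APOB, TTR and FGB were at 0 in every library and ALB had a sum of 1 count. The summed level of 5 ductal markers, mostly KRT7, ran from 407.4 to 414.0 CPM with melatonin, 792.7 to 794.9 CPM with chloroquine and 936.3 to 991.7 CPM in untreated cells, and 3 general epithelial markers followed the same order. Of the ductal list KRT19 shared this order. EPCAM (9.52, 12.5 and 9.06 CPM with melatonin, chloroquine and no treatment) and SOX9 (1.94, 1.5 and 1.54 CPM) did not, and SPP1 had at most 3 counts. Lists of fibroblast, leukocyte and endothelial markers stayed at sums of at most 26.9, 8.03 and 6.86 CPM. The part of these levels in the results was not tested, and in such bulk RNA fewer cells of a type and less RNA per cell cannot be told apart.

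EGF family ligands are made as membrane-bound precursors whose outer part is cut free by metalloproteases, ADAM17 above all. The released ligand makes receptors pair, and the paired receptors start the RAS-ERK and PI3K-AKT cascades. AREG, EREG, HBEGF, TGFA and BTC bind EGFR, HBEGF, EREG and BTC also bind ERBB4, and NRG1 binds ERBB3 and ERBB4. ERBB2 has no known soluble ligand and serves as a partner, while ERBB3 has little kinase activity of its own and signals through its partner. In liver the pathway is known for its role in regeneration, and several of its ligands are raised in injured liver and in liver cancer.

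In melatonin-treated cells all 6 ligand transcripts stood above their untreated level, AREG 10.3-fold, whereas the receptors differed by at most 1.23-fold in either direction. The 5 ligands other than AREG rose between 1.49-fold and 2.87-fold. ERBB2 fell with each agent. With chloroquine, no ligand passed the test. Every one of the 9 genes had at least 16 counts in every library and all passed the count filter, as did 16877 genes in all.

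AREG encodes amphiregulin, a low-affinity EGFR ligand (ENSG00000109321, chromosome 4, 74445134 to 74455009, plus strand, GRCh38 as placed by GENCODE 29). It held 597 and 361 counts in melatonin libraries, 50 and 46 in chloroquine libraries and 31 and 46 in untreated libraries. Scaled, these were 24.4 and 21.8 CPM with melatonin, 2.48 and 2.38 CPM with chloroquine, and 1.9 and 2.55 CPM in untreated cells. Both melatonin libraries lay far above the other 4, and the chloroquine values fell inside the range of the untreated ones. The log2 difference was 3.37 between melatonin and untreated cells and 3.25 between melatonin and chloroquine. Of the 16877 tested genes, 25 had a larger log2 difference between melatonin and untreated cells. The untreated libraries set much of its uncertainty, as the difference was 3.19 without untreated library 1 and 3.61 without untreated library 2. With chloroquine AREG did not pass against untreated cells (log2 fold change 0.12, 95% interval -0.33 to 0.57, adjusted p = 0.769 in edgeR).

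**Figure D1:**
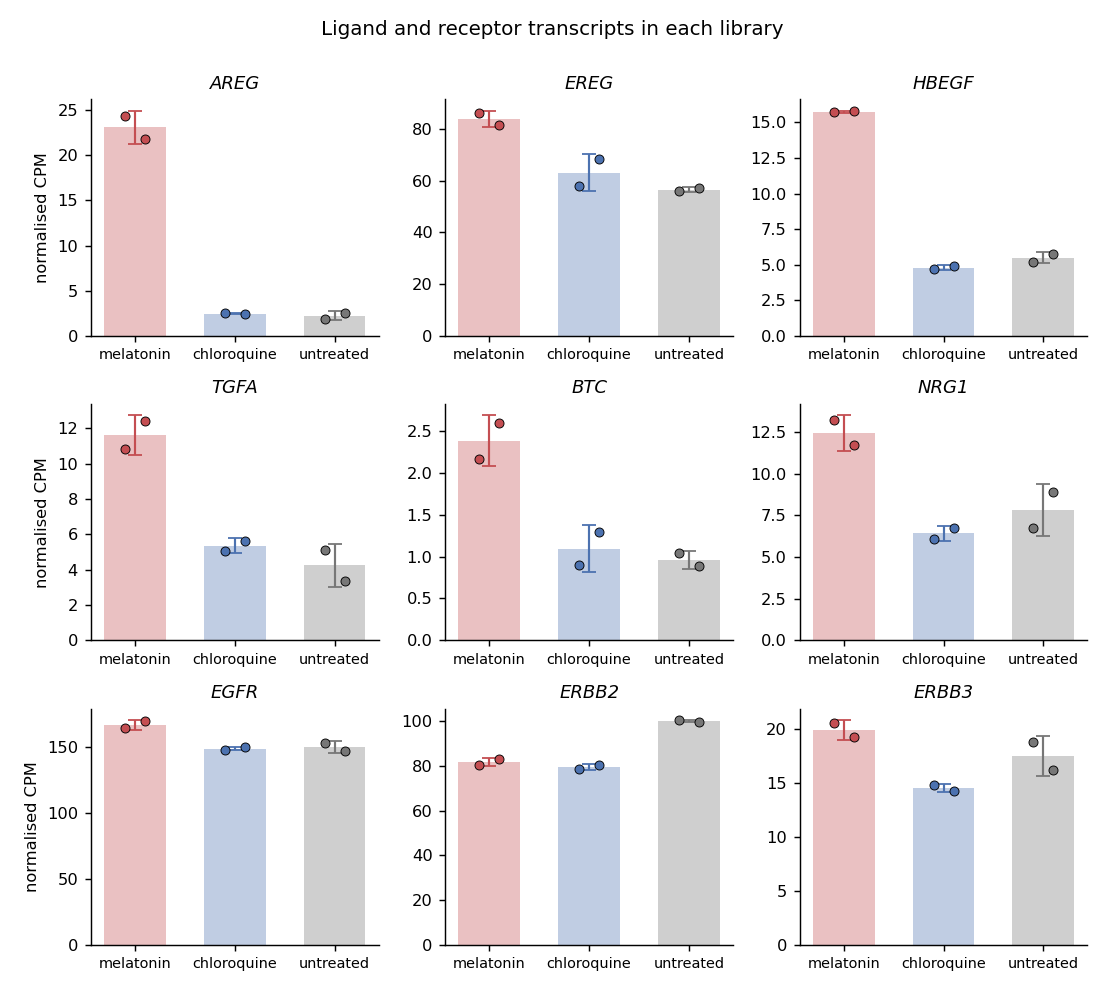
Normalised CPM of the 9 genes in each library (points), with the mean (bar) and SD (error bar) of the 2 libraries of melatonin, chloroquine and untreated cells; each panel has its own axis from 0. AREG stood at 24.4 and 21.8 CPM with melatonin against at most 2.55 CPM in the other libraries, and ERBB2 was highest in untreated cells.

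The start regions of AREG, its neighbour EREG and HBEGF are shown because these were the ligands with the highest levels per length after melatonin. Each is the RefSeq window (GRCh38.p14) of 250 bases before to 50 after the start, written 5′ to 3′ along the gene. Capitals mark matches, on either strand, to the CRE (TGACGTCA), its half-site (TGACG), the AP-1 site (TGANTCA), the TATA box (TATAAA) and the TEAD site (GGAATG); a full CRE also holds the half-site on both strands.
AREG promoter, chr4:74444886-74445185, plus strand: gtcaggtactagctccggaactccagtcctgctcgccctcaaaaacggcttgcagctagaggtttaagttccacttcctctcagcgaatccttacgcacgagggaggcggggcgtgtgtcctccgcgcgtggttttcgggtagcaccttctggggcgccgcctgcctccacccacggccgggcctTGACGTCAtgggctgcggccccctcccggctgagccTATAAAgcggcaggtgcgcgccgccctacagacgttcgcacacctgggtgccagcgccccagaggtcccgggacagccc
EREG promoter, chr4:74364895-74365194, plus strand: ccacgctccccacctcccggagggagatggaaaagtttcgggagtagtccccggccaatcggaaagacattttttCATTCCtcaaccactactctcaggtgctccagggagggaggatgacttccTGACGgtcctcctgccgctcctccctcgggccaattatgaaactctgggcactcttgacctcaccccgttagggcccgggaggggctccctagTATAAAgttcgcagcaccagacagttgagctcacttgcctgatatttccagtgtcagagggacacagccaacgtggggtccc
HBEGF promoter, chr5:140346554-140346853, minus strand: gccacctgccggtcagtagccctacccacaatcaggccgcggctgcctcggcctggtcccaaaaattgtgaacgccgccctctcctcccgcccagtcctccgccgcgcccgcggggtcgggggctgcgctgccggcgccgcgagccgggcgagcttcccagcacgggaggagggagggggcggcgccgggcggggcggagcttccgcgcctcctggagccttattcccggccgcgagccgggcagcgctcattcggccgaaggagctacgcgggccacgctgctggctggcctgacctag
The AREG window held a full CRE that begins 65 bases before the start and a TATA box 29 bases before it. A full CRE was found in 1.85% of the 35116 promoter windows of the reference, a half-site in 24.6%, a TATA box in 11.5%, a TEAD site in 14.0% and an AP-1 site in 7.71%. The EREG window held a half-site, a TATA box 32 bases before the start and a TEAD match, and the HBEGF window held no match. Windows of 7 of the 9 genes were searched, those of NRG1 and ERBB3 not being used here. Of the other windows, 1 of TGFA had a half-site, the downstream start of EGFR had AP-1, TATA and TEAD matches, and ERBB2 had an AP-1 match, with no match for BTC. A match is a run of letters and not a measured binding site.

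EREG, epiregulin, which binds EGFR and ERBB4, was the most abundant ligand by CPM (ENSG00000124882, chromosome 4, 74365143 to 74388751). It held 86.1 and 81.6 CPM in melatonin libraries, 58.0 and 68.2 CPM in chloroquine libraries, and 55.9 and 57.1 CPM in untreated libraries. Both melatonin values lay above all others, and both chloroquine values were above the untreated pair. It rose with melatonin by 0.57 ± 0.06 (log2, SE, n = 2 each, edgeR adjusted p = 7.39e-09). Its transcript has the lowest GC content of the 9 (36.1%), and its fold change was 0.33 once each library's trend with GC content and length was taken out. With chloroquine it had 0.16 (adjusted p = 0.0799), and it had 0.00 with that trend taken out and 0.04 without chloroquine library 2. It passed at 0.27 without chloroquine library 1 and at 0.17 without the count filter.

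HBEGF, the heparin-binding ligand that is also the diphtheria toxin receptor (ENSG00000113070, chromosome 5, 140332843 to 140346631, minus strand), held 15.7 and 15.8 CPM with melatonin, 4.67 and 4.92 CPM with chloroquine and 5.21 and 5.76 CPM in untreated cells. The melatonin pair stood well apart and the chloroquine pair lay just under the untreated one. It rose 2.87-fold with melatonin (log2 1.52 ± 0.13, SE, edgeR adjusted p = 9.74e-11), and it had -0.20 with chloroquine (95% interval -0.52 to 0.12, adjusted p = 0.423). It also stood 3.29-fold higher with melatonin than with chloroquine.

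TGFA, transforming growth factor alpha (ENSG00000163235, chromosome 2, 70447280 to 70554193, minus strand), held 10.8 and 12.4 CPM with melatonin, 5.06 and 5.64 CPM with chloroquine, and 5.09 and 3.38 CPM in untreated cells. The melatonin pair was the highest, and the chloroquine range overlapped the untreated one. It rose 2.75-fold with melatonin (log2 1.46 ± 0.16, adjusted p = 2.17e-08 in edgeR). With chloroquine it had 0.35 (adjusted p = 0.202), and it had 0.07 without untreated library 2 but passed at 0.66 without untreated library 1.

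BTC, betacellulin, which binds EGFR and ERBB4 (ENSG00000174808, chromosome 4, 74744759 to 74794686, minus strand), was the scarcest, at 53 and 43 counts with melatonin, 18 and 25 with chloroquine and 17 and 16 in untreated cells. These were 2.17 and 2.6 CPM with melatonin, 0.894 and 1.29 CPM with chloroquine, and 1.04 and 0.886 CPM in untreated cells. Only the melatonin libraries stood apart. BTC rose with melatonin by 1.29 ± 0.33 (log2, SE, edgeR adjusted p = 0.00159), with a wide 95% interval of 0.62 to 1.96. With chloroquine it had 0.18 (95% interval -0.58 to 0.95, adjusted p = 0.794).

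NRG1, neuregulin 1, the one ligand of the 6 that does not bind EGFR (ENSG00000157168, chromosome 8, 31639386 to 32767959), held 13.2 and 11.7 CPM with melatonin, 6.11 and 6.73 CPM with chloroquine and 6.74 and 8.91 CPM in untreated cells. The melatonin libraries were again the highest, and the chloroquine pair lay just under the lower untreated library. It rose with melatonin by 0.67 ± 0.14 (log2, SE, adjusted p = 0.000145 in edgeR) and had -0.29 with chloroquine (adjusted p = 0.184).

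EGFR, the receptor for AREG, EREG, HBEGF, TGFA and BTC (ENSG00000146648, chromosome 7, 55019021 to 55211628), held 164.5 and 169.8 CPM with melatonin, 148.2 and 149.9 CPM with chloroquine, and 153.3 and 147.0 CPM in untreated cells. The melatonin pair was the highest and the chloroquine pair lay within the untreated range. It rose by 0.15 ± 0.04 with melatonin (log2, SE, edgeR adjusted p = 0.00159), and with the GC and length trend taken out it had 0.07 and was not called, while library totals in place of TMM factors gave 0.25. With chloroquine it had -0.01, with a 95% interval of -0.09 to 0.07 (adjusted p = 0.903). Its antisense partner EGFR-AS1, which shares 186 bases of exon, had at most 5 counts in a library.

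ERBB2, the partner receptor HER2 (ENSG00000141736, chromosome 17, 39687914 to 39730426), held 80.3 and 83.1 CPM with melatonin, 78.4 and 80.5 CPM with chloroquine, and 100.4 and 99.6 CPM in untreated cells. All 4 treated libraries lay below both untreated ones, which serve both comparisons. It fell by 0.29 ± 0.05 with melatonin (log2, SE, edgeR adjusted p = 3.49e-06) and by 0.33 ± 0.05 with chloroquine (adjusted p = 4.30e-06). Between the agents it had 0.04, with a 95% interval of -0.06 to 0.13 (adjusted p = 0.53), and it passed at 0.13 with library totals in place of TMM factors. ERBB2 has the highest GC content of the 9 (57.5%). Over the 12627 genes behind the GC trend, log2 fold changes fell by 0.215 per 10% GC with melatonin and by 0.135 with chloroquine. With that trend taken out it stood at -0.13 with melatonin and -0.21 with chloroquine, both still called. Its exons overlap those of PGAP3 (194 bases) and MIEN1 (571 bases) on the opposite strand, and whether the counting used strand is not given in the sources used here. PGAP3 had -0.33 with melatonin (adjusted p = 0.0482) and -0.28 with chloroquine (adjusted p = 0.168), and MIEN1 had -0.22 with melatonin (adjusted p = 0.0525) and -0.37 with chloroquine (adjusted p = 0.00644) in edgeR. The part of shared reads in the ERBB2 values was not tested.

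ERBB3, the neuregulin receptor with weak kinase activity (ENSG00000065361, chromosome 12, 56076799 to 56103505), held 20.6 and 19.3 CPM with melatonin, 14.8 and 14.3 CPM with chloroquine, and 18.8 and 16.2 CPM in untreated cells. The untreated pair lay between the melatonin and the chloroquine pair. Neither agent passed against untreated cells, with 0.20 for melatonin (adjusted p = 0.0895) and -0.26 for chloroquine (adjusted p = 0.0714) in edgeR. Both values hung on the untreated libraries: melatonin passed at 0.31 without untreated library 1, and also at 0.29 with library totals, and chloroquine passed at -0.37 without untreated library 2. Melatonin and chloroquine differed from each other by 0.45 ± 0.10 (log2, SE, adjusted p = 0.0003).

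Counted together, 6 of the 8 genes other than AREG rose with melatonin and 1 fell. Over all genes tested, 52.0% were called, 25.5% higher and 26.5% lower, and since AREG was chosen on this comparison nothing is read from that count. The median log2 fold change was 1.29 over the 5 ligands other than AREG and 0.15 over the 3 receptors, beside 0.01 over all genes tested. With chloroquine, ERBB2 was the 1 call among the 9, downward, against 20.2% of all genes called, 10.7% lower and 9.54% higher. The count of 0 upward calls with chloroquine was the same in DESeq2, while at an unadjusted p under 0.05 edgeR gave 1 upward (EREG) and 2 downward (ERBB2 and ERBB3). Melatonin set against chloroquine gave 7 higher and 0 lower of the 8 genes other than AREG, in edgeR and DESeq2 and at an unadjusted p under 0.05, against 47.0% of all genes called, 23.1% higher and 23.9% lower, and again nothing is read from it. In that direct comparison HBEGF stood at 1.72, TGFA at 1.11, NRG1 at 0.96 and EREG at 0.41 on the log2 scale. EGFR stood at 0.16 there (0.10 with the GC and length trend taken out and 0.25 with library totals), and BTC stood at 1.11 and lost its call without chloroquine library 1 (0.86).

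**Figure D2:**
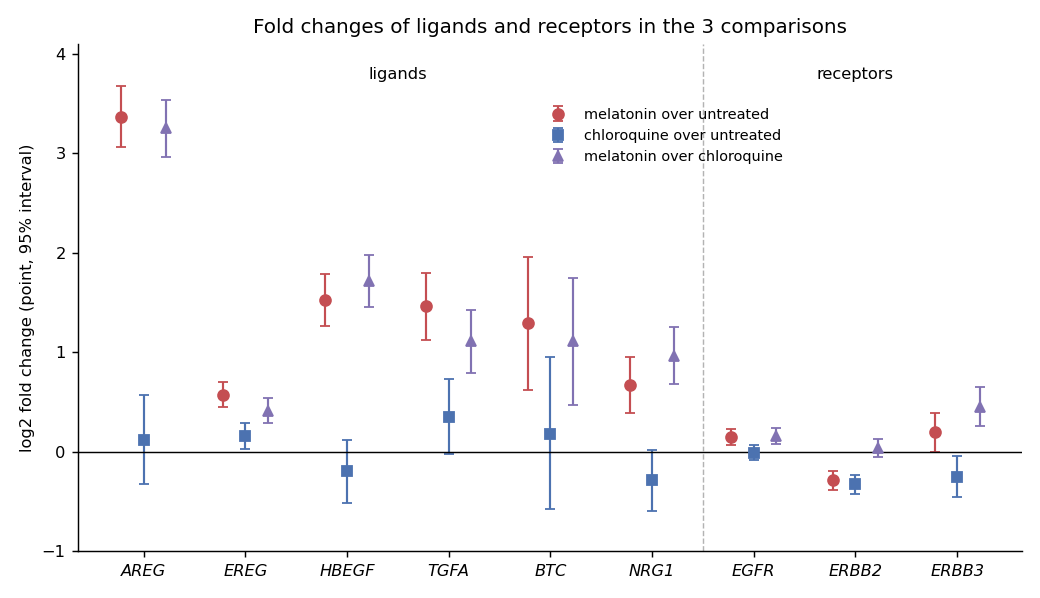
Log2 fold changes (points) with 95% intervals from the edgeR fit for the 6 ligands and 3 receptors in the 3 comparisons; AREG was chosen for its melatonin values, so its melatonin points are descriptive. For melatonin over untreated cells, ligand points run from 0.57 to 3.37 and receptor points from -0.29 to 0.20.

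Levels can be compared between genes only per length, here as CPM per kb of annotated exon. That length joins the exons of all transcripts and exceeds the longest transcript unevenly. For ERBB2 it is 10321 bases against 4930, and for EGFR 12521 against 9821. The order of genes and the shares of sums below hold for this length only, and the order of ERBB2 and EGFR depends on it. In untreated cells EGFR led with 12.0 ± 0.358, ahead of EREG at 9.88 ± 0.151 and ERBB2 at 9.69 ± 0.053 (SD, n = 2), and these 3 were separate in both libraries. ERBB3 (1.93) and HBEGF (1.82) followed and overlapped, then AREG (1.35), then TGFA (0.853) and NRG1 (0.691), which overlapped, and BTC (0.342). With chloroquine the order was the same, though the ranges of EGFR and EREG overlapped there. After melatonin EREG (14.7 ± 0.555), AREG (14.0 ± 1.11) and EGFR (13.3 ± 0.299) came first, each overlapping its neighbour in that order, and ERBB2 followed at 7.91. AREG, sixth in chloroquine-treated and untreated cells, thus stood beside EREG in melatonin-treated cells.

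Summed over the 6 ligands, the level was 38.2 ± 1.41 CPM per kb with melatonin, 16.1 ± 1.49 with chloroquine and 14.9 ± 0.408 in untreated cells (SD, n = 2). AREG made up 36.7% ± 1.56 of that sum with melatonin, 9.20% ± 1.12 with chloroquine and 9.01% ± 1.61 in untreated cells. EREG made up 38.4%, 68.3% and 66.2% in melatonin, chloroquine and untreated cells. NRG4, which is not one of the 6, is left out of the sum and the shares. It stood at 3.41 ± 0.358 CPM per kb with melatonin, 4.05 ± 0.358 with chloroquine and 4.73 ± 0.21 in untreated cells. In chloroquine-treated and untreated cells only EREG of the 6 stood higher. The share of HBEGF was 13.7% ± 0.561 with melatonin, 9.87% ± 0.552 with chloroquine and 12.2% ± 0.525 in untreated cells. The sum over the 3 receptors was 23.5 ± 0.392 CPM per kb with melatonin, 21.2 ± 0.200 with chloroquine and 23.6 ± 0.619 in untreated cells. Within it ERBB2 made up 33.7% ± 0.262 with melatonin, 36.3% ± 0.330 with chloroquine and 41.0% ± 0.852 in untreated cells, and EGFR 56.9%, 56.1% and 50.8%. The ligand sum and the shares of it hold AREG, so their melatonin values are a description.

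**Figure D3:**
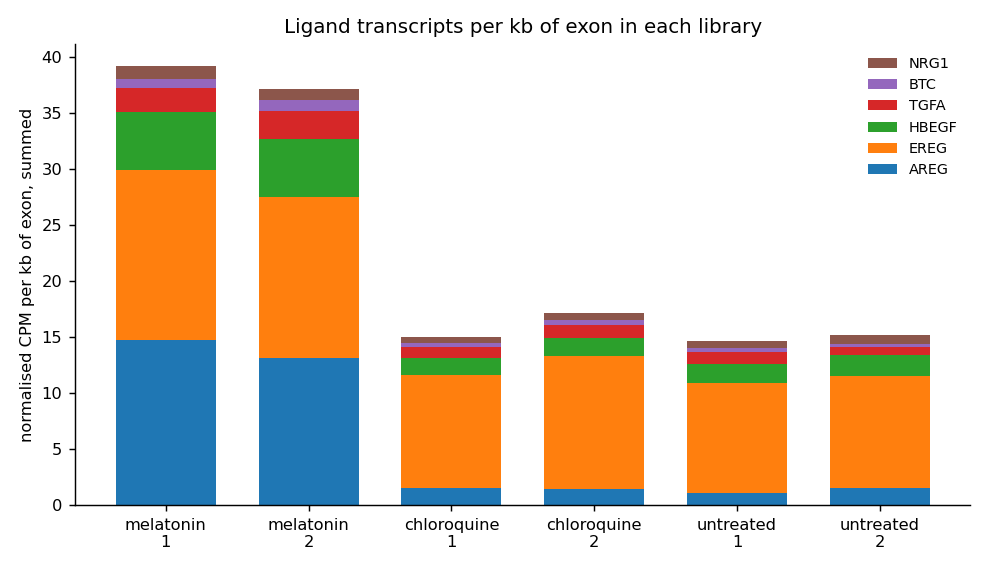
Normalised CPM per kb of exon of the 6 ligands, stacked in each of the 6 libraries. NRG4 is not included. The melatonin bars average 38.2 against 16.1 with chloroquine and 14.9 in untreated cells, and the AREG segment at the bottom is the one that widens most.

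Other ligands of the family were mostly near the floor. NRG4, which binds ERBB4, was the exception at 18.4 and 15.9 CPM with melatonin, 21.6 and 19.1 CPM with chloroquine, and 24.5 and 23.0 CPM in untreated cells. It fell by 0.46 ± 0.09 with melatonin (log2, SE, edgeR adjusted p = 0.000199), and both melatonin libraries lay below all others. With chloroquine it had -0.22 and was not called, though it was called at -0.35 with the GC and length trend taken out. Melatonin against chloroquine gave -0.24 for NRG4, a call lost without chloroquine library 1 (-0.14), without melatonin library 2 (-0.14), in DESeq2 (-0.24), with upper-quartile factors (-0.21) and with library totals (-0.15). NRG2 held 22 and 11 counts with melatonin, 3 and 0 with chloroquine and 1 and 1 in untreated cells; it passed the filter through its melatonin libraries alone, so no fold is given. EGF had 10 and 2 counts with melatonin, 4 and 1 with chloroquine and 3 and 1 in untreated cells, and EPGN had between 2 and 7 counts in every library. NRG3 was at 0 in all 6 libraries. The remaining receptor ERBB4, the receptor of NRG4, had at most 7 counts in a library.

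AREG, EREG, BTC and EPGN lie in 1 cluster on chromosome 4. EREG starts 80.0 kb before AREG on the same strand, EPGN 137 kb before it, and BTC starts 350 kb after it on the opposite strand. RASSF6, which lies 825 kb before AREG, rose with melatonin by 1.52 ± 0.35 (log2, SE, edgeR adjusted p = 0.000638), at 2.29 and 1.87 CPM with melatonin, 0.894 and 0.828 CPM with chloroquine and 0.797 and 0.664 CPM in untreated cells. MTHFD2L, an enzyme gene of mitochondrial folate metabolism between RASSF6 and EPGN, had 0.15 and was not called (adjusted p = 0.354), and PARM1 beyond BTC had at most 4 counts. The chemokine genes CXCL8 (116 to 1700 counts), CXCL1 (12 to 83), CXCL3 (24 to 182) and CXCL2 (88 to 484) also lie between RASSF6 and MTHFD2L and passed the filter; they were not on the list, were named after their values were seen, and their differences are not described here. With chloroquine neither RASSF6 nor MTHFD2L was called in edgeR, with RASSF6 at 0.24 (adjusted p = 0.746) and MTHFD2L at 0.13 (adjusted p = 0.547).

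**Figure D4:**
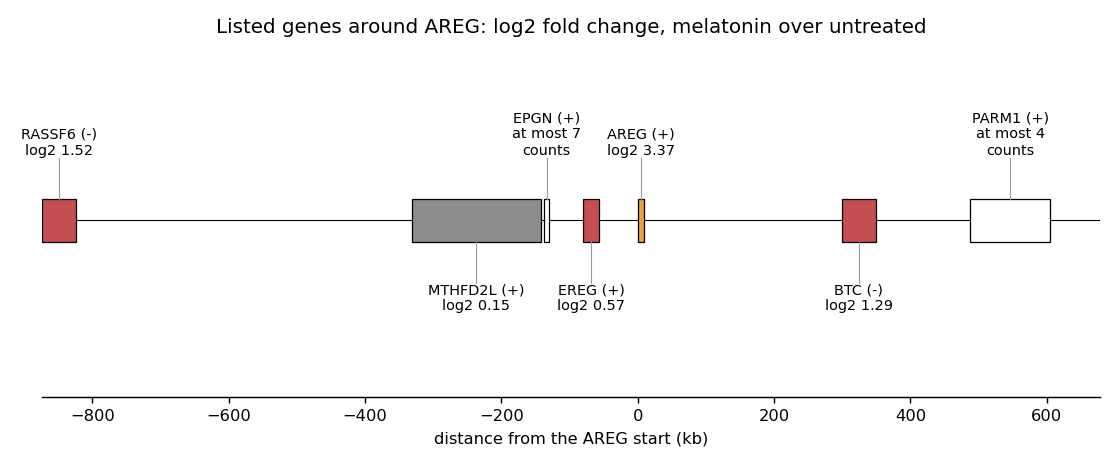
AREG and the listed genes around it, without the chemokine genes between RASSF6 and MTHFD2L, by distance from the AREG start in kb (boxes to scale, strand in brackets), with the log2 fold change of melatonin over untreated cells. Red boxes were called higher, the grey box was tested and not called, white boxes were under the count filter and the orange box is AREG, which was not tested. RASSF6, EREG and BTC have 1.52, 0.57 and 1.29.

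Of 10 genes for shedding and ligand processing, 4 rose and 3 fell with melatonin (median 0.01, as over all genes), against 25.5% and 26.5% of all genes tested. The calls with the smallest p were moved by the GC and length trend. ADAM17, the main ligand sheddase, had 0.24, or 0.01 without a call once the trend was taken out. ADAM10, the sheddase for BTC and EGF, had 0.16, which turned to -0.09 with the trend taken out and was 0.26 with library totals. ADAM15 had -0.44, or -0.09 without a call. With chloroquine 3 rose and 2 fell, against 9.54% and 10.7% of all genes. ADAM15 fell by 0.46 (-0.23 with the trend taken out) and ADAM9 rose by 0.22 (0.11 with it taken out). RHBDF1, the inactive rhomboid that helps ADAM17 mature, had -0.45, a call lost without chloroquine library 2 (-0.34), without untreated library 2 (-0.42), in DESeq2 (-0.45) and with the trend taken out (-0.23). Melatonin against chloroquine gave -0.24 for ADAM9 (-0.15 with library totals), -0.54 for ADAM12 (-0.34 without chloroquine library 1) and 0.29 for RHBDF2, a call lost without chloroquine library 2 (0.28) and in DESeq2 (0.29).

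Of 14 tested genes that restrain or turn over the receptors, 9 rose and 1 fell with melatonin (median 0.23), against 25.5% and 26.5% of all genes tested. RNF41, the ubiquitin ligase that lowers ERBB3 protein, rose by 0.61 ± 0.05 (log2, SE, edgeR adjusted p = 5.62e-11), to 127.1 ± 8.77 CPM with melatonin, against 82.9 ± 1.72 CPM in untreated cells. CBLB, a ubiquitin ligase for active receptors, rose by 0.70 and EPS15, an endocytic adaptor, by 0.45 (0.23 with the GC and length trend taken out). Several of the smaller rises shrank with that trend taken out: LRIG2 from 0.34 to 0.16, USP8 from 0.32 to 0.09 and CBL from 0.15 to 0.02. SOCS4 turned from 0.19 to -0.09, while LRIG1 went up from 0.76 to 0.86. ERRFI1 counted as a rise at 0.28, though its ranges overlapped (141.3 and 142.1 CPM with melatonin, 141.5 and 93.4 CPM in untreated cells). With chloroquine 4 rose and 1 fell (median 0.02), against 9.54% and 10.7% of all genes. ERRFI1, a feedback inhibitor that binds the EGFR kinase, rose by 0.52 in edgeR but not in DESeq2, at 168.0 ± 11.8 CPM with chloroquine and 117.4 ± 34.0 CPM in untreated cells. The untreated libraries set its size, with 0.85 without untreated library 1 and 0.25 without untreated library 2. EPS15 had 0.20, lost without chloroquine library 1 (0.15) and with the trend taken out (0.07), and EPN1 had -0.27, lost without chloroquine library 1 (-0.23) and without untreated library 1 (-0.21). Melatonin against chloroquine gave 0.59 for RNF41, 0.54 for CBLB and 0.23 for CBL, a related ubiquitin ligase (0.15 with the trend taken out).

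Of 27 adaptors and kinases downstream, 10 rose and 13 fell with melatonin (median -0.12), against 25.5% and 26.5% of all genes tested. PIK3R1, the regulatory subunit of PI3K, rose by 1.49 ± 0.14 (log2, SE, edgeR adjusted p = 4.00e-10), to 14.5 ± 1.05 CPM with melatonin, against 5.11 ± 0.290 CPM in untreated cells. SOS1, which loads RAS with GTP, rose by 0.46 (0.21 with the trend taken out), and AKT2 fell by 0.66. With chloroquine 4 rose and 6 fell (median -0.01), against 9.54% and 10.7% of all genes. SHC1, an adaptor, fell by 0.28 (-0.17 with the trend taken out). MAPK3, which encodes ERK1, had -0.42 and PIK3CA had 0.27, both without a call at -0.23 and 0.10 once the trend was taken out. Melatonin against chloroquine gave -0.47 for AKT2, -0.36 for STAT5B, a transcription factor, and 1.13 for PIK3R1.

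More ERK target genes rose than fell with each agent. The list was chosen with earlier results of these data known, so its counts are a description. With melatonin 13 of 17 rose and 2 fell (median 0.68), and with chloroquine 11 rose and 2 fell (median 0.33); both counts share the untreated libraries. Over all genes tested, 25.5% were called higher and 26.5% lower with melatonin, and 9.54% and 10.7% with chloroquine. EGR1, an immediate early factor, stood at 40.8 ± 2.47 CPM with melatonin, against 5.31 ± 0.548 CPM in untreated cells (log2 2.94 ± 0.12, SE, edgeR adjusted p = 3.35e-17). ETV5, an ETS factor, rose by 1.52 with melatonin and by 0.74 with chloroquine, and DUSP4, an ERK phosphatase, by 0.99 with chloroquine. MYC fell by 0.77 with melatonin and by 0.24 with chloroquine. Melatonin against chloroquine gave 2.32 for EGR1, 1.26 for PHLDA1 and -0.54 for MYC.

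Over all 72 tested genes of these lists outside the 9, 38 rose and 20 fell with melatonin, 22 rose and 11 fell with chloroquine, and 29 were higher and 17 lower with melatonin than with chloroquine. The melatonin counts include NRG2, which passed the filter through its melatonin libraries alone, and the shares of all genes called are those given above. With library totals in place of TMM factors, the last split became 38 higher and 10 lower. The median of all genes stood at 0.09 in that comparison, against 0.00 with TMM factors. With the GC and length trend taken out, 30 rose and 16 fell with melatonin against untreated cells. In DESeq2 31 rose and 17 fell there. With chloroquine the count of 33 called genes was 19 without chloroquine library 2, 20 in DESeq2 and 18 with the GC and length trend taken out.

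**Figure D5:**
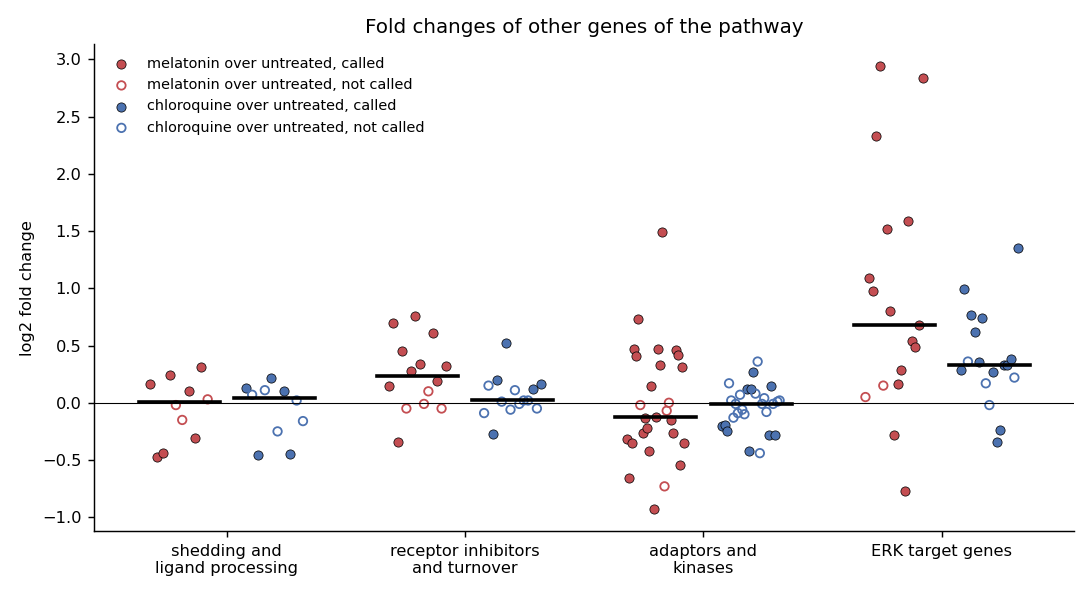
Log2 fold changes of the other pathway genes in 4 lists with melatonin (red) and chloroquine (blue) over untreated cells; filled points were called, open points were not, and black bars are medians. The median of the ERK target genes was 0.68 with melatonin and 0.33 with chloroquine, and those of the other lists lay between -0.12 and 0.23.

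The genes whose log2 CPM followed AREG most closely over the 6 libraries were ENTPD5 (Pearson r = 0.9992), MAPK1IP1L (0.9991), KDM1B (0.9989), ZYG11B (0.9989) and PDE4DIP (0.9985), out of 11193 genes ranked. The 6 points fall into 3 groups, and a gene high in both melatonin libraries and level in the rest has an r near 1 whatever its size of change. The log2 fold changes of these 5 with melatonin ran from 0.49 for MAPK1IP1L to 1.19 for KDM1B, all smaller than that of AREG. Within the family HBEGF followed AREG best (0.989), then BTC (0.934), EREG (0.933), EGFR (0.928), NRG1 (0.922) and TGFA (0.915), with ERBB3 at 0.725 and ERBB2 at -0.435.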

How the data were processed

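Per the file headers and the submitters' processing notes, the authors deposited whole-number counts of reads per Ensembl gene, with fastp named as the read trimmer and GRCh38 as the genome. Aligner, annotation release and strand setting: not given in the sources used here. Columns were matched to samples by title. Symbols came from the reference table (62639 of 62710 genes) and coordinates, exon length and GC content from GENCODE 29, which placed 58274.

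Counts were fitted with edgeR 4.0.16 in R 4.3.3 (filterByExpr, TMM, glmQLFit and glmQLFTest over all 6 libraries, 1 term per group), which gave the 3 comparisons. The threshold for a call was 0.05 on the Benjamini-Hochberg adjusted p over 16877 genes, and "rose" and "fell" are used of called genes. SE and 95% intervals come from the F statistic. The spread of each gene was drawn towards that of other genes, with 3 residual and 23.6 prior degrees of freedom. These values thus lean mostly on the spread over all genes. Libraries of a group differed by more than counting error (chi-square per degree of freedom 1.83 to 2.66). The steps were tested on simulated data. CPM per kb divides by the union of annotated exons.

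The 9 genes and the pathway lists were chosen with earlier results of these data known. Named pathway genes are up to 3 of each list with the smallest p, and every gene of the short lists. Further list genes are named only to show moves with the GC and length trend or overlapping ranges. Alternatives were RLE, upper-quartile or no scaling factors, DESeq2 1.42.0, 2 other count filters, a fit of 2 groups, the replicate number as a block, offsets for GC content and length, and each library left out, with the lone library taken to vary as the other groups do.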

Additional observations from a re-analysis of the deposited data

How the results depend on the processing

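Of 428 alternative values of the 9 genes, 416 counted as unchanged, 3 lost a call and 7 gained one. The other 2, both of AREG with melatonin, which are given without a test, moved by more than the SE of the reported 3.37. Unchanged means the same side of the threshold, with the same direction where either value was called. For AREG with melatonin it means a move within the SE. Uncalled values could turn and still count as unchanged, as AREG with chloroquine did (0.12, lowest -0.07). Of 758 values of named pathway genes, 728 were unchanged in that sense, 26 lost a call and 2 gained one. The remaining 2 turned from a called value, which were ADAM10 with melatonin at -0.09 with the GC and length offsets, without and with the block. The 758 cover a gene only in the comparison where its rank or short list named it. With melatonin over untreated cells, other called list genes also turned with the offsets. Examples were HRAS (-0.26 to 0.25), RHBDF1 (-0.31 to 0.05), FOSL1 (-0.28 to 0.03) and SOCS4 (0.19 to -0.09). The 728 include uncalled values that turned, such as MTHFD2L with melatonin (0.15, and -0.05 with the offsets). With chloroquine the 3413 called genes were 2025 in DESeq2, 1842 with the offsets, 1866 with offsets and block, and 1922 to 3718 with 1 library left out. The 1 called gene of the family became 2 without a count filter, and 1 to 2 with 1 library left out. The 33 called pathway genes became 20 in DESeq2, 18 with the offsets, 18 with offsets and block, and 19 to 33 with 1 library left out. For these 3 counts the cause was not tested. The melatonin counts stayed within 1.5 times, though library totals with no scaling factor turned the split of 4307 higher and 4475 lower into 5541 and 3434 against untreated cells, and 3892 and 4041 into 5177 and 2952 against chloroquine. Upper-quartile factors gave 4548 and 4236 against untreated cells and 4216 and 3745 against chloroquine. Equally numbered libraries did not deviate together (correlations -0.0168, -0.00876 and -0.0405), so equal numbers were not read as pairing. The replicate block gave 8731 called genes for melatonin and 3436 for chloroquine over untreated cells and 7878 between the agents, with the same calls among the 9. Depth limits BTC, AREG in untreated cells and every gene under the count filter.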
